A study of Mus musculus with 3 samples.

Results

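The bright genes of 2 arrays were compared, the one labelled Atmp38dKO and the one labelled AtmsKO, both from long-term hematopoietic stem cells (LT-HSCs). A probe was selected on its signal: at least 500 processed intensity units on at least 1 of both arrays, and well above background, by the scanner software's flag, on both. This left 5439 of 56600 probes, which belong to 4689 of the 36993 genes on the array. LT-HSCs sustain blood formation for life, by self-renewal and by supplying every lineage. They were sorted from the bone marrow of C57BL/6J mice, 11 weeks old by the labels, as CD150+CD48-Flt3-CD34- cells within the lineage-negative, Sca-1+ and c-Kit+ (LSK) fraction. The sources differ on the sort: the paper's array methods also exclude CD41+ cells, and its figure legend names only CD34 and Flt3 within LSK. The AtmsKO mice carried floxed Atm and the Atmp38dKO mice floxed Atm and floxed p38α (Mapk14), and both carried CreERT2, a Cre recombinase activated by tamoxifen, under the broadly active CAG promoter, so deletion was not limited to blood cells. WT is the array of the control mice, which by the methods also received tamoxifen but had no Cre. Each genotype had 1 array, from a number of mice that the sources do not state. The variation between mice is therefore unknown, no p-value was computed, and the values compare arrays, not conditions.

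p38α is a kinase that is switched on by stress and cytokines and acts, through further kinases, on transcription factors and on the stability of short-lived messages. Immediate early genes are a set, including the Fos and Jun families, whose messages appear within minutes of a stimulus and decay fast, and many of them lie downstream of MAP kinases. Notch is a receptor that is cleaved on contact with a ligand, and its intracellular part turns on repressor genes of the Hes and Hey families. Egr1, of the first set, and Hes1, of the second, are known for their part in keeping HSCs quiescent.

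To show what the arrays measured, the first 30 of the 60 bases of the probes that the first results turn on are given, 5′ to 3′ and as the array files list them. No letter is marked. The positions of the whole probes are on mm9, at chr17:28873965-28874024 and chr17:28885290-28885349 for the probes of Mapk14 (both on the plus strand), chr16:30067820-30067879 for Hes1 (plus strand), chr3:8663432-8663491 for Hey1 (minus strand) and chr17:29632331-29632390 for Pim1 (plus strand). Which exon or untranslated region each lies in was not determined here.
Mapk14, brighter probe: agttgaagctcattttaagactcgttggaa
Mapk14, dimmer probe: ggtatgccataggatgtcagataataccac
Hes1: ttaaaatatcttcctttggggaagtttatt
Hey1: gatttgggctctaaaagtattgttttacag
Pim1: ctttggtttcgacttaactgtttcaaaacc

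The targeted genes were read first. Mapk14 was a bright gene at its brighter probe, with signals of 469 on WT, 558 on AtmsKO and 616 on the array labelled Atmp38dKO. Normalized to each array's 75th percentile, it differed by -0.15 on the log2 scale between the Atmp38dKO-labelled and AtmsKO arrays, and its second probe (signals 260 and 345) by 0.12. From WT, the array labelled Atmp38dKO differed by 0.18 at the brighter probe and by 0.01 at the second. On the array that should lack it, Mapk14 was therefore slightly lower than on AtmsKO at 1 probe and lower than on WT at neither. Whether a probe lies in a deleted exon was not determined, and the array is called by its label throughout. Atm, which both genotypes should lack, was dim and not a member. At its brighter probe the signal was 87.0 on WT, 23.9 on AtmsKO and 86.5 on the array labelled Atmp38dKO, a log2 difference of 1.57 between the last 2. At its other probe it was 88.8, 16.3 and 49.0 (1.30). Against WT, Atm was lower on AtmsKO at both probes (-1.79 and -2.37), whereas on the array labelled Atmp38dKO it lay at -0.22 at the brighter probe and -1.07 at the other. On that array Mapk14 was thus below WT at neither probe, and Atm was more than 2-fold below WT at only 1. The other p38 isozyme genes were also too dim to be members. Mapk13 had a log2 difference of -0.13, Mapk11 of -0.09 and Mapk12, at signals of 11.1 and 32.9, of 1.28.

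The array labelled Atmp38dKO was the brighter one, with a 75th percentile of 118 intensity units against 96.2 for AtmsKO and 102 for WT, and with 77.7%, 68.9% and 73.3% of probes well above background in the same order. The members were selected on unscaled signals, so 590 genes were bright on the array labelled Atmp38dKO alone and 55 on the AtmsKO array alone, while 4044 were bright on both. On all arrays 300 probes were printed 10 times, and the median SD of their spots was 0.05 on the log2 scale, a spread within an array that holds no variation between mice. Of 12 LT-HSC markers 6 were bright, among them Kit (signals 2773 and 3248 on the AtmsKO and Atmp38dKO-labelled arrays), Hlf (1468 and 1850) and Meis1 (1006 and 1106). The other 6 were dim but well above background, and of these Hoxb5 (107 and 34.0, log2 difference -1.95) and Fgd5 (146 and 69.8, -1.36) differed more than 2-fold. Flt3 and Cd48, which the sort excluded, were dim (70.3 and 101, and 21.2 and 34.0). Cd34, also excluded at the cell surface, was bright at the message level, at 1666 and 2185. The Y-linked Kdm5d (1050 and 1593) and the X-inactivation RNA Xist (1789 and 1830) were both bright on both arrays, with log2 differences of 0.31 and -0.26.

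Most bright genes differed little. The log2 difference between the Atmp38dKO-labelled and AtmsKO arrays had a median of -0.07 and an SD of 0.26, and 95.2% of the 4689 genes lay within 0.5 of 0. Lower on the array labelled Atmp38dKO, by any amount, were 62.1% of them. At least 2-fold higher on the array labelled Atmp38dKO were 19 genes (0.405%), and 17 were at least 2-fold lower (0.363%). At 1.5-fold the counts were 73 (1.56%) and 88 (1.88%), and at 4-fold 1 in each direction. Among the 21320 genes well above background on both arrays without a bright probe the SD was 0.56, and 3.24% were at least 2-fold higher and 3.45% at least 2-fold lower. The median also moved with brightness. It was 0.18 for the 351 genes with a geometric mean signal under 500, of which 23.9% were lower and 16 (4.56%) past 2-fold in either direction. It was -0.04 for genes with a geometric mean signal of 500 to 1000 and -0.13 for the 849 genes above 5000. Under quantile normalization, loess or the normexp background the median of all bright genes turned slightly positive, so a shift of this size has no settled direction.

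**Figure D1:**
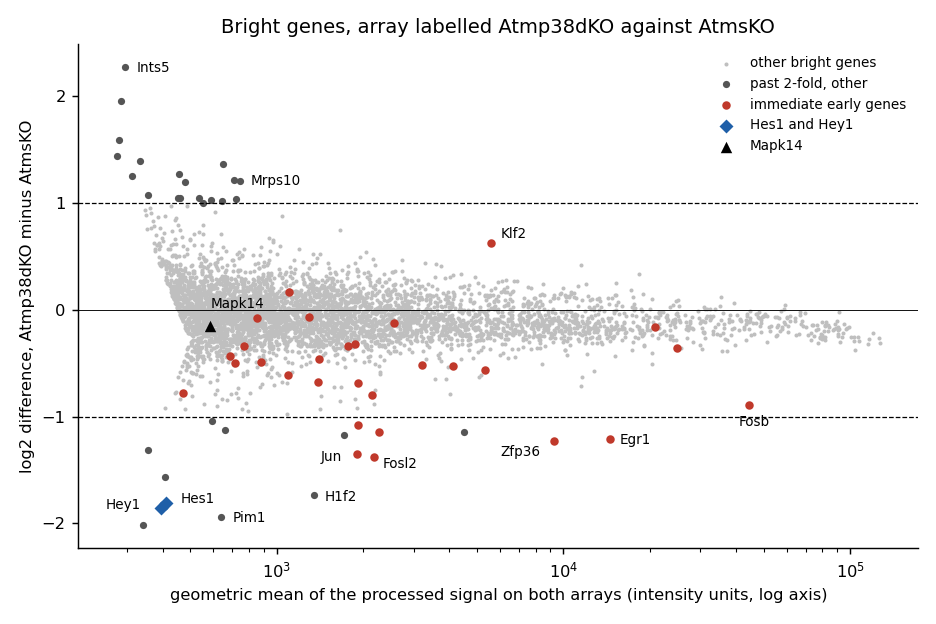
Log2 difference between the array labelled Atmp38dKO and the AtmsKO array (vertical axis) against the geometric mean of the processed signal on both (intensity units, log axis) for the 4689 bright genes, 1 point per gene, with dashed lines at 2-fold. Immediate early genes (red) lie mostly below 0 up to the brightest signals, Hes1 and Hey1 (blue) lie near -1.8, Mapk14 (triangle) lies at -0.15, and all rises past 2-fold are among the dimmer members.

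Immediate early genes were the list that lay lowest. Of 49 listed genes 29 were bright, 27 of them were lower on the array labelled Atmp38dKO and 2 were higher, where 62.1% of all bright genes were lower. Of the 29, 6 were at least 2-fold lower and 12 at least 1.5-fold lower, where 0.363% and 1.88% of all bright genes were, and 1 was at least 1.5-fold higher. Their median log2 difference was -0.52 against -0.07 for all bright genes, and between -0.54 and -0.42 under the other scalings and backgrounds. The list holds genes that earlier results of these data had already shown, so its direction is a description. The 20 remaining genes of the list were well above background on both arrays but dim, and their median was -0.42.

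The AP-1 genes, which encode the paired Fos and Jun subunits of a transcription factor, held several of the lowest values. Fosl2 (Fra-2) had signals of 1894 on WT, 3185 on AtmsKO and 1496 on the array labelled Atmp38dKO, a level 2.61-fold lower than on AtmsKO. Its other probe, at 454 and 285, was lower too (-0.96). Jun had 3652, 2740 and 1318 in the same order and was 2.54-fold lower. For both genes the Atmp38dKO-labelled array was the lowest of the 3.

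Fosb, a further Fos family member, had signals of 60695 on WT, 54723 on AtmsKO and 36225 on the array labelled Atmp38dKO. Its log2 difference between the last 2 was -0.89, and that of its other probe -0.81. Fos had 3323, 2559 and 1801 (-0.80). The other AP-1 genes differed less at their brightest probes, Jund by -0.36 and Junb, at 19933 and 21833, by -0.16. The other probe of Jund differed by -0.28. The 2 other probes of Junb were dim and differed by -0.92, at signals of 169 and 109, and by -0.16. Fos, Jund and Junb were picked after their values were seen, as were Kdm5d, Xist, Elavl1, Ier2, Nr4a2, Klf6, Klf4, Klf2, Ier3, Sik1, Notch2, Adam10, Hes5, Map2k3, Mknk2, Hspa8, Hsph1, Hspd1, Fkbp4, Dusp4, Dusp6, Dusp10, Tmem181a, Kctd20 and Gemin6.

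Regulators of transcription and of message decay were also lowest on the array labelled Atmp38dKO. Egr1, a zinc finger factor induced by growth signals, had signals of 25186, 20033 and 10604 (WT, then AtmsKO, then the array labelled Atmp38dKO) and was 2.31-fold lower on the last than on AtmsKO. Nr4a1, an orphan nuclear receptor, had 3551, 3062 and 1702 (log2 difference -1.14). Zfp36 encodes tristetraprolin, which binds AU-rich messages, speeds their decay and is itself a target of the p38 pathway. It had 12556, 12847 and 6698 and was 2.35-fold lower. In these 3 genes the WT and AtmsKO arrays lay closer to each other than to the array labelled Atmp38dKO.

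Among the bright phosphatase genes of the Dusp family in the early and p38 lists, which switch off MAP kinases, Dusp2 and Dusp1 had the largest differences. Dusp2 was 2.11-fold lower on the array labelled Atmp38dKO, at 2525 on AtmsKO and 1463. Dusp1, which acts on p38 itself, had 3485 and 2979 (-0.52). Dusp6 (-0.13), Dusp4 (-0.08) and Dusp10 (-0.02) lay near the median of all bright genes. Klf4, a factor of the Krüppel family, had 3529 on WT, 2197 and 1670 (-0.69 between the last 2), whereas its relative Klf2 went the other way, at 4084 on AtmsKO and 7691 on the array labelled Atmp38dKO, 1.54-fold higher. Of the early genes not yet named, Ier2 (-0.68), Nr4a2 (-0.61) and Klf6 (-0.57) were also lower.

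Other signal-responsive genes outside that list were also at least 2-fold lower. Pim1 encodes a survival kinase induced by cytokines. It had signals of 936 on WT, 1134 on AtmsKO and 363 on the array labelled Atmp38dKO, a log2 difference of -1.94. Sik1, a salt-inducible kinase, had 2507, 2327 and 1261 (-1.18). Rgs1, a regulator of G protein signaling, had 5191, 6029 and 3338 (-1.15). Vegfa, a growth factor gene, is the only one of the 17 genes with another bright probe: its 3 other probes above background differed by -1.80, -1.01 and -0.67, and the one used by -1.13, with signals of 641, 881 and 494 (WT, then AtmsKO, then the array labelled Atmp38dKO).

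Between Atmp38dKO-labelled and WT arrays the immediate early genes had a median log2 difference of -0.55, and between AtmsKO and WT of -0.08. These comparisons share arrays with each other and with the one above and are given side by side only. Over all bright genes 50 (1.07%) differed at least 2-fold in either direction from WT on the array labelled Atmp38dKO and 19 (0.405%) on the AtmsKO array.

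The upstream sequences of 4 of the early genes that lay lower together are shown. Those of other such genes, among them Jun, Egr1, Fosl2 and Dusp2, are not. They are the 250 bases before the RefSeq transcription start on GRCm38.p6, at chr12:85473640-85473889 for Fos (plus strand), chr7:19310046-19310295 for Fosb (minus strand), chr15:101266596-101266845 for Nr4a1 (plus strand) and chr7:28379229-28379478 for Zfp36 (minus strand), each written in the gene's own direction. Capitals mark TGACG or, for the other strand, CGTCA, the core of the cyclic AMP response element, and the CArG box of the serum response element.
Fos: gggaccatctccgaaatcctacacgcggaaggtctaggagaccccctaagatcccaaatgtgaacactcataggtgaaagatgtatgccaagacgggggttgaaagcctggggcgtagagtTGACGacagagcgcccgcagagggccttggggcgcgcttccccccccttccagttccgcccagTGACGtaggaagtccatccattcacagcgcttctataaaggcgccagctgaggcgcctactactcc
Fosb: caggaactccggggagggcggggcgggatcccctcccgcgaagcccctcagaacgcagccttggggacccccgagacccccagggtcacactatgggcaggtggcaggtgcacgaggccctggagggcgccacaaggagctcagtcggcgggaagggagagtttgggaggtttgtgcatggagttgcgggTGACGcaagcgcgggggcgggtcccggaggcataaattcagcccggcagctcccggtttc
Nr4a1: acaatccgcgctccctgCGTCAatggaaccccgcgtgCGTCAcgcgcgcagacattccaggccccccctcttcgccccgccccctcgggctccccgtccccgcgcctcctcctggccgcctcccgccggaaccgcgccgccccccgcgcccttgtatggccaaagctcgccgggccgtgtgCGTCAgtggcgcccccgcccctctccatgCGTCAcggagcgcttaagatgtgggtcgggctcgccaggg
Zfp36: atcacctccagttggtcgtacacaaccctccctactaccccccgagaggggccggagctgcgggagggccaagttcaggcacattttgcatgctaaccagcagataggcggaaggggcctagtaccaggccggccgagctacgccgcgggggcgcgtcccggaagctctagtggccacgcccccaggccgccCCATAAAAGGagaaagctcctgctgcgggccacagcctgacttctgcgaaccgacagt

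Fos held 2 such cores, Fosb 1 and Nr4a1 4, and Zfp36 held a CArG box. TGACG on either strand was found in 17.8% of all 32851 upstream stretches, in 32.7% of the 2698 bright genes with a sequence and in 10 of the 23 bright immediate early genes with one. The CArG box was found in 1.47% of all stretches and in 2 of those 23 genes. Of the early genes at least 1.5-fold lower with a sequence, 5 of 10 held TGACG and 1 of 10 the CArG box. Of the other bright early genes with a sequence, 5 of 13 held TGACG and 1 of 13 the CArG box. A match of letters is a description and no binding site.

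Hes1 and Hey1, both repressors that Notch turns on, were the lowest pair among the transcription factors. Hes1 had signals of 1077 on WT, 697 on AtmsKO and 243 on the array labelled Atmp38dKO, a level 3.51-fold lower than on AtmsKO. Hey1 had 997, 681 and 231 and was 3.61-fold lower. Both genes were highest on WT, lower on AtmsKO and lowest on the array labelled Atmp38dKO, and each was read by 1 probe only.

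The rest of the Notch list was level. Of its 46 genes 11 were bright. Only Hes1 and Hey1, 2 of the 11, were at least 2-fold lower, where 0.363% of all bright genes were. The median of the 11 was 0.00. The receptor Notch2 (signals 3012 and 3733 on the AtmsKO and Atmp38dKO-labelled arrays) differed by 0.02, Adam10, the protease of the first cleavage, by 0.10, and Psenen, a subunit of γ-secretase, by 0.11. Hes5, a further Hes family target, had 625 and 756 (-0.02). The 29 dimmer genes of the list that were well above background on both arrays had a median of -0.07. Of these 29, 1 was at least 2-fold lower, where 3.45% of all genes without a bright probe were.

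**Figure D2:**
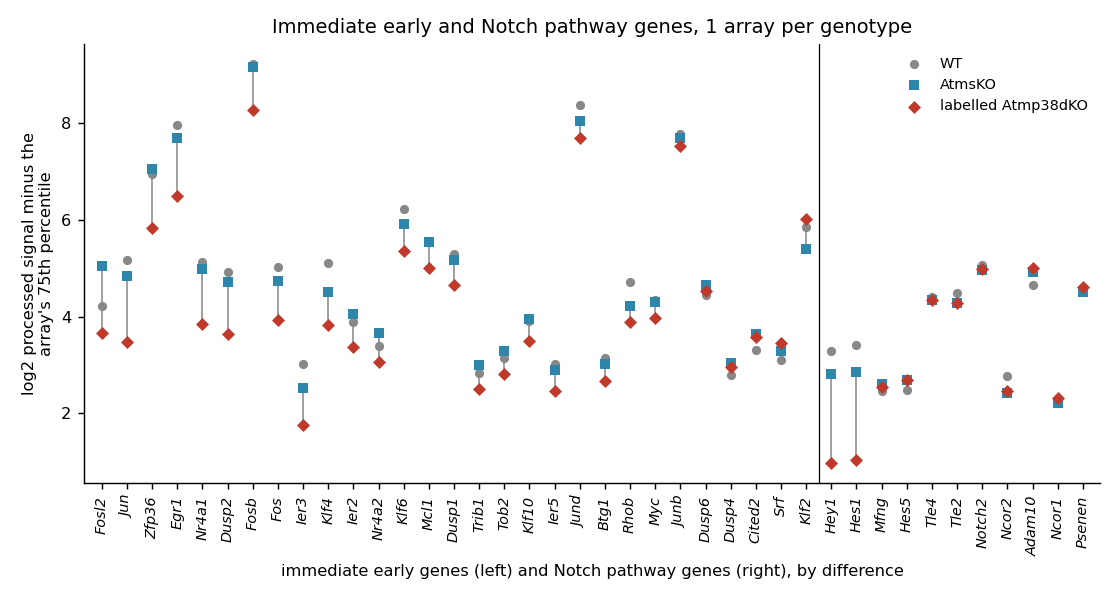
Level of each bright immediate early gene (left of the line) and Notch pathway gene (right) as log2 processed signal minus the array's 75th percentile, 1 symbol per array (circle WT, square AtmsKO, diamond labelled Atmp38dKO) and no error bar because there is 1 array per genotype. The diamond lies below the square for 27 of 29 immediate early genes, and in the Notch list the large gaps are those of Hey1 and Hes1.

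Of 47 genes of the p38 pathway 19 were bright. Zfp36 was the only one past 2-fold, and it was lower, as were 0.363% of all bright genes by that much. By any amount 15 of the 19 were lower, with a median of -0.16, beside 62.1% lower and a median of -0.07 over all bright genes. Tab2, an adaptor that helps activate the kinases above p38, had signals of 1600, 1835 and 1363 (WT, then AtmsKO, then the array labelled Atmp38dKO, difference -0.72), and its 2 other probes differed by -0.25, at a bright probe, and 0.00. The kinase above p38, Map2k3, differed by -0.33 and the kinase substrate Mknk2 by -0.15. Elavl1 (HuR), which stabilizes AU-rich messages, was the highest at 0.47.

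Of 30 bright cytosolic heat shock and chaperone genes 3 were at least 1.5-fold lower, where 1.88% of all bright genes were. Hspa1b had signals of 6430, 2691 and 1784 (WT, then AtmsKO, then the array labelled Atmp38dKO, difference of the last 2 -0.89). Hspa1a had 11889, 4782 and 3383 (-0.79), and Dnajb1, a cochaperone of the Hsp70 proteins, 21834, 13095 and 10345 (-0.63). These 3 genes were highest on WT. Hspa1a and Hspa1b are near-identical neighbours whose probes may read both. Others differed less or the other way, Hspa8 by -0.23, the stress-inducible Hsph1 by -0.18, Hspd1 by 0.17 and the cochaperone Fkbp4 by 0.49. The median of the list was -0.15, with 0 past 2-fold.

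Of 37 bright histone genes 35 were lower, where 70.2% of all bright genes with signals of 2000 to 5000 and 82.4% of those above 5000 were. Their median signal on AtmsKO was 4656. Their median difference was -0.26 and remained below 0 under every scaling and background tried (-0.28 to -0.14). H1f2, a linker histone, was the outlying member at signals of 1503, 2228 and 819 (WT, then AtmsKO, then the array labelled Atmp38dKO, difference -1.74), but its other, dim probe differed by only -0.30. The histone genes share sequence, so probes of the family may read several members. All 78 bright genes of cytoplasmic ribosomal proteins were lower, by a median of -0.18 within a narrow range of -0.43 to -0.04, and none was past 1.5-fold. Their median signal on the AtmsKO array was 11874, and of all bright genes above 5000, 82.4% were lower, with a median of -0.13. Under loess, quantile normalization and the normexp background their median lay between -0.08 and -0.06.

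The bright members of the remaining lists had medians near that of all bright genes (-0.07), though single genes differed more. Over all bright genes 1.88% were at least 1.5-fold lower and 1.56% at least 1.5-fold higher. HSC transcription factors had a median of -0.01 over 26 bright genes and none past 1.5-fold, the largest differences being those of Zfx (0.51), Ssbp2 (0.47) and Hoxa9 (-0.45). HSC surface and niche receptors had -0.06 over 17, with F2r, a thrombin receptor, at -0.63 and Procr, the protein C receptor that marks LT-HSCs, at -0.52. Cell cycle genes had 0.01 over 28, p53 targets -0.01 over 9, antioxidant genes -0.04 over 21 and respiratory chain genes -0.12 over 60, with none past 1.5-fold in these 4 lists. Interferon response genes had -0.01 over 22, with 2 at least 1.5-fold higher, where 1.56% of all bright genes were. They were the receptor chain Ifngr2 (0.88) and the peptide transporter Tap2 (0.63). Both were below 500 on AtmsKO, at 272 and 283, so they are members only through the array on which they are high. TNF and NF-kB targets had -0.09 over 14, with Ifngr2 the only one past 1.5-fold. In the glycolysis and hypoxia list Vegfa and Ddit4, an inhibitor of mTOR (-0.85), were past 1.5-fold downward and Pdk1, which holds back pyruvate oxidation, upward (0.74). Endoplasmic reticulum chaperones had -0.04 over 23, and 2 of them, Atf4 (-0.71) and Hspa5 (-0.63), were at least 1.5-fold lower. Quiescence genes and CDK inhibitors had -0.06 over 9. Of these, 2 were at least 1.5-fold lower, where 1.88% of all bright genes were. They were Rgs1, which was past 2-fold (-1.15), and Rgs2 (-0.64). The PI3K, Akt, mTOR and FoxO list had -0.004 over 16. In it Ddit4 was past 1.5-fold downward and the AMPK subunit gene Prkaa1 upward (0.59). Reference genes had -0.13 over 13. Over the dim members of these lists the medians ran from -0.19 (reference genes) to 0.06 (p53 targets). All genes without a bright probe had 0.01. Of 54 dim TNF and NF-kB targets 5 were at least 2-fold lower and 1 at least 2-fold higher, where 3.45% and 3.24% of all genes without a bright probe were. Zfx, Pdk1 and Prkaa1, below 500 on AtmsKO, and Procr and Vegfa, below 500 on the array labelled Atmp38dKO, are likewise members through 1 array only.

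Markers of other cell types were also compared. Between 0 and 5 genes of each of 8 cell type lists were bright. Of these only Pf4, the platelet factor of megakaryocytes, was past 1.5-fold, at signals of 1020, 2366 and 1536 (WT, then AtmsKO, then the array labelled Atmp38dKO, difference -0.92). The summed signal of the megakaryocyte list was 7849 on AtmsKO and 7934 on the array labelled Atmp38dKO, that of the granulocyte list 27271 and 32037, that of the B cell list 2616 and 3341 and that of the monocyte and macrophage list 4152 and 4774. The sums of the erythroid list were 4780 and 6168, of the T and NK cell list 2057 and 2923, of the mast cell and basophil list 431 and 484, and of the endothelial and stromal list 6695 and 7565. All 8 sums were higher on the array labelled Atmp38dKO, as was its 75th percentile. Scaled to that percentile, 3 sums were higher, T and NK cell (log2 difference 0.21), erythroid (0.08) and B cell (0.06), and 5 were lower, from granulocyte (-0.06) to megakaryocyte (-0.28). Such a sum follows its brightest genes, and Csf3r alone had 23058 on AtmsKO, beside the granulocyte sum of 27271. Over the dim genes of each list the median difference was 0.21 (erythroid), 0.20 (T and NK cell) and 0.00 (megakaryocyte). It was -0.03 (B cell), -0.03 (mast cell and basophil), -0.21 (granulocyte), -0.36 (monocyte and macrophage) and -0.51 (endothelial and stromal). Whether a change in cell makeup took part in the differences above was not tested, and fewer cells of a type cannot be told apart from less RNA per cell.

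**Figure D3:**
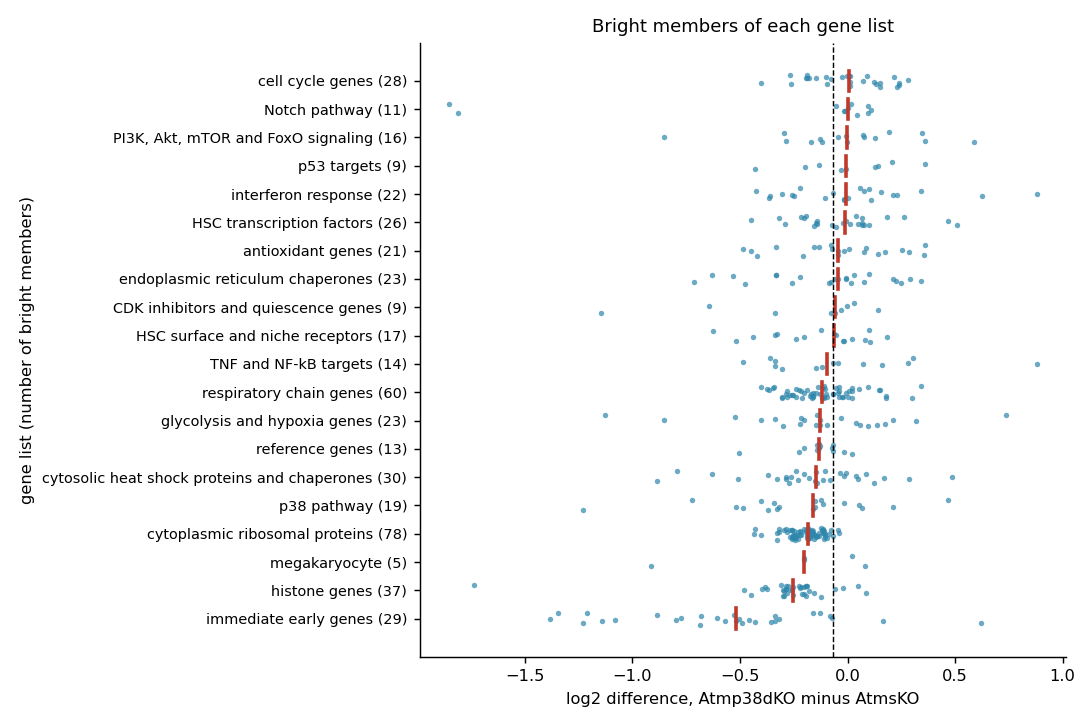
Log2 difference between the array labelled Atmp38dKO and the AtmsKO array (horizontal axis) for every bright member (points) of each list with at least 5, with the list's median (red bar) and the median of all bright genes (dashed line). Immediate early genes are the list farthest from the dashed line, with a median of -0.52, and the 78 ribosomal protein genes form the tightest list.

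Signals differed between the genes that were higher and those that were lower. The 19 genes at least 2-fold higher had median signals of 286 on AtmsKO and 784 on the array labelled Atmp38dKO, and the geometric mean of both was under 500 in 11 and above 1000 in none. Among the 17 lower genes the median signals were 2228 and 819, and the mean was above 1000 in 9. Where a probe had to be bright on both arrays, 0 genes were at least 2-fold higher and 9 at least 2-fold lower, so all 19 rises rest on a probe below 500 on AtmsKO. Likewise 8 of the 17 falls, with Hes1, Hey1 and Pim1 among them, were below 500 on the array labelled Atmp38dKO. These genes became members through the array on which they are high, so the selection itself shapes both sets.

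Large rises were single messages without a shared list. Ints5, a subunit of the Integrator complex that processes small nuclear RNAs, had signals of 179 on WT, 122 on AtmsKO and 722 on the array labelled Atmp38dKO (log2 difference 2.27, 1 probe). Cd28, a costimulatory receptor of T cells, had 170, 147 and 539 (1.59), and its second probe was not well above background on AtmsKO. Rilpl1 had 402, 366 and 1151 (1.36), and its other probe well above background on both arrays differed by 0.72. Glo1, the glyoxalase that removes methylglyoxal, had 182, 183 and 535 (1.25), with its other 2 probes at 1.59 and 0.88. For Ints5, Cd28, Rilpl1 and Glo1 the WT array lay nearer to AtmsKO than to the array labelled Atmp38dKO.

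Further rises with other probes in the same direction were Trappc2l (1.03), Rab4a, a recycling endosome GTPase (0.89), Arl4c (0.77), Wdhd1 (0.75), Lxn, a carboxypeptidase inhibitor known for limiting HSC numbers (0.73), Rnf103 (0.71), Usp21 (0.68), Ptger4, a prostaglandin E2 receptor (0.67) and Jak3, a cytokine receptor kinase (0.66). Further falls of that kind were Gosr2 (-1.31, its other probe at -0.03), Smim4 (-0.94), Tnfrsf21 (-0.93), Marcksl1 (-0.90, others at -0.90 and -0.75), Ube2s (-0.84), Nfkbid (-0.83) and Rbm27 (-0.81). Only the sign of the other probes was required in both sets, and their sizes varied. Among these rises they ranged from 0.06 (Jak3) and 0.07 (Arl4c) to 1.58 (Trappc2l, at signals of 7.67 and 28.1). Among these falls they ranged from -0.03 (Gosr2) to -1.22 (Nfkbid), with -0.19 for Ube2s and -0.20 for Rbm27. Slc35c2 (1.05), with 1 probe, was also higher. In 4 of the larger changes the second probe pointed the other way, namely Slc29a3 (1.39 against -0.15), Gprasp2 (1.05 against -0.41), Mdga1 (0.97 against -0.55) and Stk17b (-0.93 against 0.07).

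The brightest genes reached the upper end of the scale without a saturation flag. Rn18s, the 18S ribosomal RNA, had 128072 on AtmsKO and 126389 on the array labelled Atmp38dKO, and Dennd4a, Sgsh, Sp110, Pak4 and Skint7 lay between 106704 and 127729 on both. These 6 differed by -0.32 to -0.22 after scaling, although their unscaled signals were nearly equal. The other probes of Dennd4a, Sgsh, Sp110 and Skint7 read far less. On the array labelled Atmp38dKO they had at most 2556, 126, 1280 and 7.67, in that order. The high signal of each of these genes was thus that of 1 probe.

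Other probes of the same gene are no replicate, since they read the same RNA on the same array, but they show how far a difference depends on the probe. Another probe well above background on both arrays existed for 2201 of the bright genes (3755 probes). Where the brightest probe differed less than 1.5-fold, 57.0% of the others had the same sign. From 1.5-fold to 2-fold it was 67.8% of 115, and past 2-fold 73.1% of 26. Past 2-fold, 7 of 7 other probes of the lower genes and 12 of 19 of the higher genes had the same sign. By gene, 12 of the 17 lower genes had no other probe and 5 had all others in the same direction, and of the 19 higher genes 9 had none, 4 had all in the same direction, 2 had all opposite and 4 had both kinds.

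**Figure D4:**
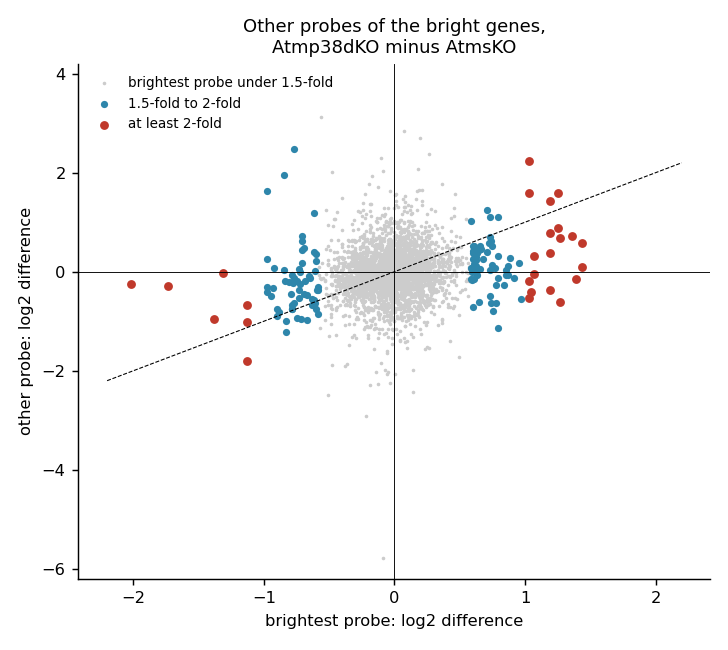
Log2 difference of each other probe of a bright gene (vertical axis) against that of the gene's brightest probe (horizontal axis), both for the array labelled Atmp38dKO minus AtmsKO, with equality dashed. Of 26 other probes of genes past 2-fold (red) 19 lie in the quadrants of the same sign, 7 of them among the lower genes.

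The genes that differed were spread unevenly over the genome. Chromosome 17, which carries Mapk14, held 281 bright genes, and 9 of them (3.20%) were past 2-fold in either direction, against 27 of 4343 (0.622%) on the other autosomes and X together and at most 1.40% on any one of them (chromosome 1). At 1.5-fold it was 22 (7.83%) against 139 (3.20%), with at most 5.61% elsewhere. The SD of the differences was 0.37 on chromosome 17 and between 0.19 and 0.31 on the other 19 chromosomes, while the median there, -0.07, was that of all bright genes. Among dimmer genes, which the selection left out, 8.61% of 1010 were past 2-fold on chromosome 17 and 6.63% of 20104 elsewhere. Both directions were present on chromosome 17, with 12 genes higher and 10 lower at 1.5-fold. Under the other scalings and backgrounds between 8 and 10 of its genes (2.85% to 3.56%) were past 2-fold, against 0.549% to 0.640% elsewhere.

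Measured from the brighter Mapk14 probe, genes past 1.5-fold lay at all distances. Of 64 bright genes within 5 Mb 6 (9.38%) were past 1.5-fold, of 133 from 5 to 20 Mb 10 (7.52%) and of 84 farther away 6 (7.14%). At 2-fold the counts were 4 of 64 (6.25%), 2 of 133 and 3 of 84 (3.57%). Within 5 Mb lie Kctd20 (0.78, both its other probes opposite), Pim1, Mdga1, Glo1, 1700097N02Rik (signals 290 on AtmsKO and 734 on the array labelled Atmp38dKO, 1.04) and Sik1. From 5 to 20 Mb lie Tap2, Hspa1a, Hspa1b, the early gene Ier3 (-0.78), Tnfrsf21, Vegfa and Mrps10, a mitochondrial ribosomal protein gene with signals of 367, 444 and 1253 (WT, then AtmsKO, then the array labelled Atmp38dKO, difference 1.21).

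Farther out lies Gemin6 (0.83), whose product helps to assemble small nuclear ribonucleoproteins. On the other side of Mapk14 lie Tmem181a (signals 517, 286 and 800 in the same order, difference 1.19) and Tmem181b-ps (860, 421 and 1199, 1.22), which are near-identical copies and may be 1 signal read by both probes. Of the 4 other probes of Tmem181a, 3 were also higher on the array labelled Atmp38dKO. For several of these rises the AtmsKO array, and not the Atmp38dKO-labelled one, lay apart from WT, by -0.95 for Tmem181b-ps, -0.78 for Tmem181a and -0.77 for Mdga1, whereas Glo1 and Mrps10 differed from WT by 1.34 and 1.56 on the array labelled Atmp38dKO. Against WT 9 of the 281 genes (3.20%) were past 2-fold on the array labelled Atmp38dKO and 4 (1.42%) on AtmsKO, where the other chromosomes together had 0.921% and 0.322%. On the array labelled Atmp38dKO chromosome 3 had the same share against WT, at 7 of 219 (3.20%), and chromosome 16 had 2.03%, so chromosome 17 did not stand apart in that comparison.

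**Figure D5:**
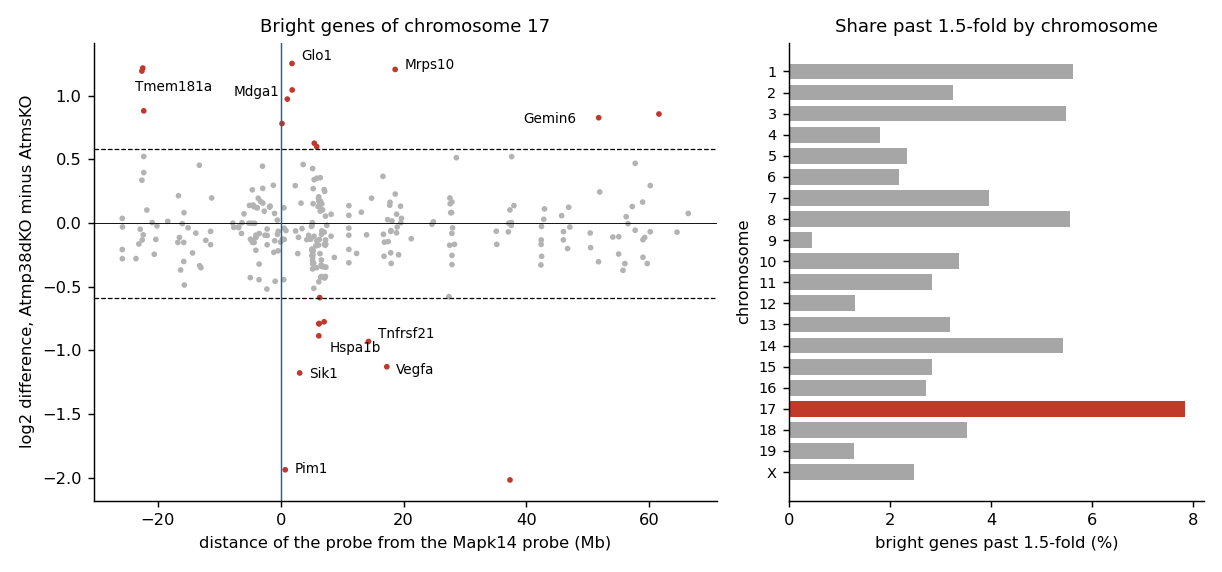
Left, log2 difference between the array labelled Atmp38dKO and the AtmsKO array for the 281 bright genes of chromosome 17 against the distance of the probe from the Mapk14 probe (Mb, blue line at 0), with dashed lines at 1.5-fold. Right, share of bright genes past 1.5-fold in either direction on each chromosome, which is 7.83% on chromosome 17 (red) and at most 5.61% elsewhere.

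At the signal threshold, 9430083A17Rik was the last member, with signals of 337 and 500 on the AtmsKO and Atmp38dKO-labelled arrays, and Pheta2, with 407 and 499.995, was the first gene left out. At 2-fold, Mettl18 (1.00) and Atg101 (-1.04) were counted, and Eml2 (0.97) and Esr1 (-0.97) were not. The Esr1 probe had signals of 48.1 on WT, 1375 on AtmsKO and 857 on the array labelled Atmp38dKO. No other Esr1 probe was above 136 on any array, and what this probe read was not tested.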

How the data were processed

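One Agilent 1-colour array (Cy3) per genotype was analysed, 3 in all, on the same slide and scan. Per the labels and file headers the authors' contractor made the deposited intensity values using Agilent Feature Extraction 11.5.1.1. Background had been removed and trends within an array corrected, with nothing done between arrays. The same files give the raw mean and background intensity and flags for each spot. The authors also deposited log2 values, used here as an alternative. Probe positions are on mm9.

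From there, control and outlier spots were left out, replicate spots were averaged, and more than 50% of them had to carry the flag for signal above background. The measure was log2 of this intensity after division by the array's own 75th percentile. Such scaling leaves relative levels only. A gene was read by its brightest member probe. RefSeq names (GRCm38.p6, accessions or unique synonyms) were found for 43844 of 56600 probes and 3415 of 4689 bright genes. Promoter sequences came from RefSeq.

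With 1 array per genotype no test was made and no unit of depth exists, the number of arrays limiting precision. The members, the gene lists and the alternatives were chosen with earlier results of these data known. Named genes are Mapk14, Hes1, Atm and the p38 isozymes, the 12 largest rises and falls borne by every other probe, the 6 largest without another probe, the 4 largest with opposite probes, the 6 brightest, and in each list the members past 2-fold, at least 3 per list where it has them. Some genes that this rule names are not reported here. The counting was tested on simulated arrays. Tools were Python 3.11.15, numpy 2.4.6, pandas 2.3.3 and R 4.3.3 with limma 3.58.1.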

Additional observations from a re-analysis of the deposited data

How the results depend on the processing

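Of the 36 genes past 2-fold, 30 stayed past it under each of 7 alternatives of scaling, background, probe choice and outlier spots, and all 36 kept their sign. Those alternatives gave 17 to 21 higher and 14 to 18 lower genes. The counts moved with the choice of members. At a signal of 250 they were 57 higher and 40 lower, at 1000 they were 5 and 10, with both arrays bright 0 and 9, and with the mean signal bright 8 higher. At 1.5-fold they were 73 and 88, and at 4-fold 1 and 1. The median of all bright genes turned to 0.0130 with quantile normalization, 0.0134 with loess and 0.0285 with normexp. That of the immediate early genes moved to -0.44, -0.44 and -0.42, but stayed -0.46 to -0.44 from the median of all bright genes, a measure chosen after seeing the data. Small list medians also changed sign: TNF and NF-kB targets to 0.0292 (normexp), HSC surface and niche receptors to 0.0224 (loess) and 0.0373 (normexp), CDK inhibitors and quiescence genes to 0.0133 (loess) and 0.0296 (normexp), and endothelial and stromal genes to 0.0397 (quantile), 0.00696 (loess) and 0.0342 (normexp). With bright other probes only, 100% had the same sign as the gene's brightest probe, over 3 probes. The causes were not tested. Leaving out a replicate was not possible with 1 array per genotype. No paired analysis was possible because a genotype has a single array, without replicate numbers.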
